A study of Homo sapiens with 21 samples.

Results

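HMGCS1, MVK, IDI1, FDFT1, SQLE, DHCR7, INSIG1 and SREBF2 are 8 genes of cholesterol synthesis and of its control. They were taken by name from a table of 26485 genes, and all 8 were among the 14018 genes with enough counts to be tested. The names were chosen with their RNA values in these libraries already known, both with all libraries and without 1 control library, so their RNA differences are described here and no test is read from them. The cells were MDA-MB-436, a long-established line from a breast tumour with a mutated BRCA1 gene, grown in high-glucose medium with fetal bovine serum. The cells carried a lentiviral, doxycycline-inducible hairpin, which was directed against RNF8, a ubiquitin ligase of the DNA break response (shRNF8), or was the control hairpin (shScr). The labels name 1 hairpin against RNF8 and no rescue. Polyadenylated RNA was sequenced in 3 shRNF8 and 3 shScr libraries. DNA-RNA hybrids were pulled down from sonicated chromatin with the S9.6 antibody (DRIP-seq) in 4 shRNF8 and 2 shScr libraries, each with an RNase-treated library beside it. Nothing in the labels tells whether replicates were separate cultures. The p-values therefore cover only the spread among these libraries, which may be technical.

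Cells build cholesterol from acetyl-CoA through mevalonate, isoprenoid diphosphates, squalene and a chain of sterols. The SREBP transcription factors raise the genes of this chain when sterols run low. They are held in the endoplasmic reticulum by the escort protein SCAP and the sterol-sensing INSIG proteins, and are cut free in the Golgi. Tumour cell lines use this supply for membranes and for the isoprenoid tails of signalling proteins.

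The RNA libraries held 18121181 to 20006954 counts, a small spread in depth. RNF8 itself averaged 9.09 ± 1.05 CPM (counts scaled to library size, with TMM factors) in shRNF8 and 28.7 ± 0.585 CPM in shScr (SD, n = 3 each), and all 3 shRNF8 libraries lay below all 3 shScr libraries. VIM, a mesenchymal filament protein, stood at 974, 1098 and 1149 CPM in shRNF8 and 1077, 920 and 893 CPM in shScr. CAV1, a caveolar coat protein, stood at 98.0, 89.4 and 116 CPM in shRNF8 and 148, 111 and 112 CPM in shScr. The luminal factor GATA3 lay between 1.06 and 1.33 CPM in shRNF8 and between 1.17 and 1.41 CPM in shScr, and the epithelial factor ELF3 between 10.7 and 13.3 CPM in shRNF8 and between 14.2 and 21.4 CPM in shScr. ESR1 and PGR, the steroid receptors that define luminal cells, had at most 0.103 CPM in any library.

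The promoters show which of the known SREBP-related sequences stand next to these genes. RefSeq promoters of GRCh38.p14 were read over the 250 bases before the annotated start for 6 of the 8 genes (FDFT1 and SQLE were not scanned). Each gene had 1 promoter read, although 2 are listed for DHCR7, 2 for HMGCS1 and 3 for IDI1. Searched on both strands were the sterol regulatory element TCACNCCAC, the E-box CACGTG, the NF-Y box CCAAT and the GC box GGGCGG. No motif contains another, and 2 of the GC boxes of INSIG1 share a base. Printed below are SREBF2, with the sterol element, INSIG1, with the E-box, MVK, with the most NF-Y boxes, and HMGCS1, an early enzyme. Capitals mark the sterol element, E-box and NF-Y matches (ATTGG is the NF-Y box on the other strand).
SREBF2, chr22:41832855-41833104, plus strand: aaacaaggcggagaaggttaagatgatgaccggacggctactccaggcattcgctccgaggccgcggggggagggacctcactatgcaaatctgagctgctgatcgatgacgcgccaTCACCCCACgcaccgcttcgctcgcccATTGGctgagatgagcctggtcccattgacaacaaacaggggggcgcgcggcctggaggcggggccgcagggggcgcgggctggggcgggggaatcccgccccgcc
INSIG1, chr7:155297628-155297877, plus strand: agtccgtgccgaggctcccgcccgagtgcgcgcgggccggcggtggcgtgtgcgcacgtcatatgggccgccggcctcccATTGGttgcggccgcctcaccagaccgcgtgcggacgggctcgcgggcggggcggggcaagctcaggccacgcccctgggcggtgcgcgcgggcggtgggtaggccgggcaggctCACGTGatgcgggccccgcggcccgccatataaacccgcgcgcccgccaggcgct
MVK, chr12:109573544-109573793, plus strand: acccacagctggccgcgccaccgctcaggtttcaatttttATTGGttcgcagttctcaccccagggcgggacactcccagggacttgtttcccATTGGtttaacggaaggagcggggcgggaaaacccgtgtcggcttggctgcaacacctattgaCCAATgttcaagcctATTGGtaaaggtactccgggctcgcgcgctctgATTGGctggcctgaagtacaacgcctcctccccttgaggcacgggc
HMGCS1, chr5:43313413-43313662, minus strand: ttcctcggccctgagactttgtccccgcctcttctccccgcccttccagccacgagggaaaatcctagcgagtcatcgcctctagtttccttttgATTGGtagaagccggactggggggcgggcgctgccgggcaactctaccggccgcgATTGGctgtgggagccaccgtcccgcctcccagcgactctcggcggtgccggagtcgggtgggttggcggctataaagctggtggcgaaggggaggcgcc
The SREBF2 match to the sterol element lay 133 to 125 bases before the start, and 0.883% of 35116 RefSeq promoters of this length hold that motif. The INSIG1 E-box lay 55 to 50 bases before the start, and 6.34% of promoters hold one. All 6 scanned genes held an NF-Y box, against 32.0% of promoters, with 5 matches in MVK, 2 each in DHCR7, HMGCS1 and IDI1, and 1 each in INSIG1 and SREBF2. All 6 also held a GC box, against 42.6% of promoters. Their GC content ran between 58.4% (MVK) and 78.4% (INSIG1), with a median of 58.0% over all promoters. A match is a description of the letters in this window. The start in the count annotation differs from the RefSeq start by 26 bases for SREBF2, 102 for INSIG1, 99 for MVK and 100 for HMGCS1.

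In RNA, the fitted level of each of the 8 genes was lower in shRNF8 than in shScr, by between -1.003 (INSIG1) and -0.21 (IDI1) on the log2 scale, with a median of -0.58 beside -0.005 over all tested genes. FDFT1 was the 1 gene of the 8 below an adjusted p of 0.05, where 1.57% of all genes were called lower, 0.97% higher and 2.54% in either direction by edgeR's quasi-likelihood test. The FDFT1 call was lost under 4 other settings that kept all libraries and without any 1 library other than shScr replicate 1, while DESeq2 called FDFT1, DHCR7 and MVK, where it called 3.78% of all genes lower and 2.3% higher. The 3 shRNF8 libraries lay near one another for most of the genes, while shScr replicate 1 lay far below shScr replicates 2 and 3. In bulk RNA, fewer cells that make a transcript and less of it per cell cannot be told apart.

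HMGCS1 condenses acetyl-CoA with acetoacetyl-CoA to HMG-CoA, from which mevalonate is made, and lies at chr5:43287470-43313512 on the minus strand. It had 39.9, 35.5 and 47.7 CPM in shRNF8 and 42.7, 101 and 80.1 CPM in shScr. The first shScr library sat inside the shRNF8 range and the other shScr libraries sat above it, so the groups overlapped. The fitted log2 fold change was -0.86 ± 0.29 (SE).

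MVK phosphorylates mevalonate and lies at chr12:109573695-109597270 on the plus strand. Its level was 14.0, 14.97 and 11.9 CPM in shRNF8 and 17.6, 20.5 and 19.3 CPM in shScr. Every shRNF8 library was below every shScr library, and the first shScr library was only slightly low here. The log2 fold change was -0.49 ± 0.13 (SE).

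IDI1 interconverts the isoprenoid units isopentenyl and dimethylallyl diphosphate and lies at chr10:1040024-1049121 on the minus strand. It had 46.7, 44.8 and 60.9 CPM in shRNF8 and 46.0, 67.7 and 62.6 CPM in shScr. The groups overlapped, with the third shRNF8 library close to the last shScr library. Its difference was -0.21 ± 0.16 (SE) on the log2 scale, the smallest of the 8. Its exons overlap those of the antisense gene IDI2-AS1 over 173 bp, and counts made without a strand setting cannot tell the pair apart there.

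FDFT1, squalene synthase, joins farnesyl diphosphate units at the branch that commits them to sterols, and lies at chr8:11795573-11839309 on the plus strand. It had 105, 101 and 111 CPM in shRNF8 and 124, 203 and 181 CPM in shScr. No shRNF8 library reached the lowest shScr library, which was again replicate 1. The log2 fold change was -0.68 ± 0.15 (SE).

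SQLE, squalene epoxidase, carries out the first oxygen-requiring step and lies at chr8:124998478-125022283 on the plus strand. It had 167, 156 and 173 CPM in shRNF8 and 160, 245 and 215 CPM in shScr. The first shScr library fell among the shRNF8 libraries. The difference was -0.32 ± 0.14 (SE) on the log2 scale.

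DHCR7 reduces 7-dehydrocholesterol to cholesterol in the last step of one branch, and lies at chr11:71434411-71448431 on the minus strand. Its level was 61.8, 59.1 and 55.3 CPM in shRNF8 and 70.3, 129 and 111 CPM in shScr. The groups did not overlap, although the first shScr library stood much nearer to shRNF8 than to the other shScr libraries. The log2 fold change was -0.82 ± 0.19 (SE).

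INSIG1 retains the SCAP and SREBP complex in the endoplasmic reticulum when sterols are plentiful, is itself an SREBP target, and lies at chr7:155297776-155310235 on the plus strand. It had 58.9, 47.0 and 60.3 CPM in shRNF8 and 55.8, 148 and 129 CPM in shScr. The first shScr library again lay inside the shRNF8 range, and its ratio to the mean of the other shScr libraries (0.403) was the lowest of the 8 genes. Its difference was -1.003 ± 0.347 (SE) on the log2 scale.

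SREBF2 encodes the SREBP form that chiefly drives cholesterol genes and lies at chr22:41833079-41907308 on the plus strand. It had 150, 147 and 119 CPM in shRNF8 and 126, 217 and 210 CPM in shScr. The groups overlapped, since the first shScr library lay inside the shRNF8 range. The difference was -0.41 ± 0.19 (SE) on the log2 scale.

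**Figure D1:**
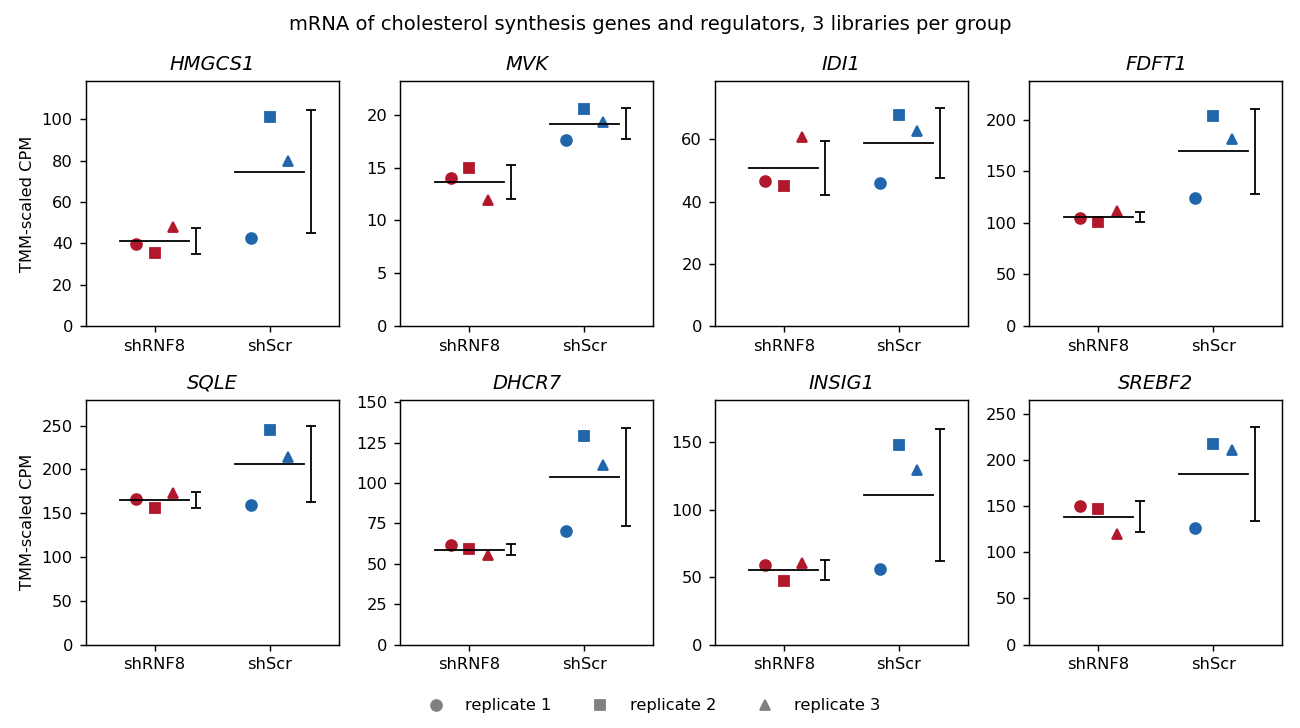
TMM-scaled CPM (vertical axis, starting at 0) of each gene in the 3 shRNF8 libraries (red, left) and the 3 shScr libraries (blue, right), with the group mean as a line and the SD as a bar. FDFT1, DHCR7 and MVK have groups that do not overlap, and shScr replicate 1 (blue circle) is the lowest shScr library in each panel.

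Groups were apart for 3 of the 8 genes (FDFT1, DHCR7 and MVK), all lower in shRNF8, where 12.8% of all tested genes had shRNF8 wholly below and 12.5% wholly above shScr. The shScr replicate 1 level was low to differing degrees. Its ratio to the mean of shScr replicates 2 and 3 was 0.403 for INSIG1, 0.471 for HMGCS1, 0.584 for DHCR7, 0.589 for SREBF2, 0.645 for FDFT1, 0.694 for SQLE, 0.706 for IDI1 and 0.881 for MVK. The median of these ratios was 0.617, against 0.998 over all tested genes, and 7 of the 8 genes lay at or under a ratio of 0.8, as did 23.3% of all genes.

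Without shScr replicate 1, all 8 genes passed the adjusted threshold and were lower in shRNF8, where 14.3% of 14259 genes tested were called lower and 12.8% higher. The 8 were named with their values in this fit known, so that count is a description and gives no support. The median log2 fold change of the 8 was then -0.74. INSIG1 stood at -1.32 ± 0.10 (SE), HMGCS1 at -1.14 ± 0.12 and DHCR7 at -1.03 ± 0.09. FDFT1 had -0.86 ± 0.08, SREBF2 -0.62 ± 0.09 and MVK -0.54 ± 0.12. SQLE had -0.47 ± 0.08 and IDI1 -0.36 ± 0.11, the smallest again. What set shScr replicate 1 apart was not tested. RNF8 was as high there (28.9 CPM) as in the other shScr libraries (29.1 and 28.0 CPM). The summed mesenchymal markers (VIM, CAV1, AXL, SPARC and ZEB1, 5 of 5 tested) ran between 1389 and 1580 CPM in shRNF8 and between 1286 and 1565 CPM in shScr. The summed luminal markers (4 of 6 tested) ran between 337 and 368 CPM in shRNF8 and between 333 and 527 CPM in shScr. KRT18 made up most of that sum, with 506 CPM in shScr replicate 1 and 306 and 335 CPM in the other shScr libraries. ELF3 ran the other way, with 14.2 CPM in shScr replicate 1 and 21.4 and 20.6 CPM in the others. As a mean log2 level relative to the shScr mean, the tested luminal markers stood at 0.03, -0.03 and -0.002 in shScr. In shRNF8 they stood lower, at -0.25, -0.28 and -0.35. VIM made up most of the mesenchymal sum, and the mesenchymal markers stood at 0.02, 0.03 and -0.05 in shScr and at -0.11, -0.11 and 0.05 in shRNF8.

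**Figure D2:**
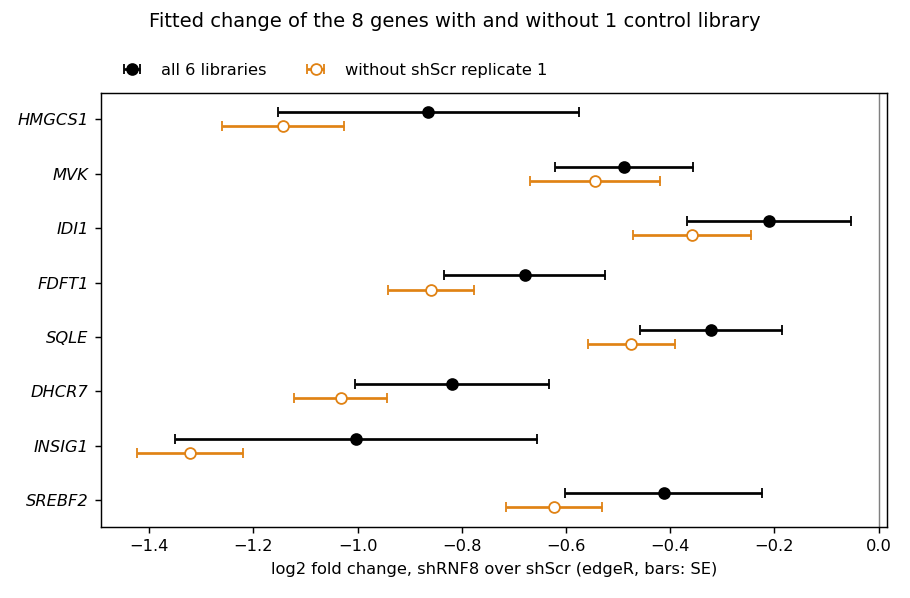
Log2 fold change of shRNF8 over shScr with its SE from the edgeR fit, with all 6 libraries (black) and without shScr replicate 1 (orange, open). All 8 points lie below 0 in both fits, and INSIG1, HMGCS1 and DHCR7 are farthest left without that library, at -1.32, -1.14 and -1.03.

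Per kilobase of transcript, which allows levels to be set between genes, SQLE was highest at 55.3 ± 2.91 CPM per kb in shRNF8 and 69.1 ± 14.5 in shScr (SD, n = 3 each). FDFT1 had 24.1 ± 1.19, SREBF2 24.0 ± 2.90, IDI1 23.8 ± 4.10 and DHCR7 22.04 ± 1.22 CPM per kb in shRNF8, and the libraries of these 4 genes overlapped. INSIG1 came next at 18.0 ± 2.37 CPM per kb in shRNF8, with libraries wholly below those of DHCR7. HMGCS1 with 7.53 ± 1.14 and MVK with 6.56 ± 0.754 CPM per kb were lowest in shRNF8, and their libraries overlapped. In shScr the order after SQLE was DHCR7 with 38.9 ± 11.4, FDFT1 with 38.6 ± 9.34, INSIG1 with 36.0 ± 15.8, SREBF2 with 31.9 ± 8.80 and IDI1 with 27.5 ± 5.32 CPM per kb, each within the SD of the next. HMGCS1 with 13.7 ± 5.44 and MVK with 9.22 ± 0.719 CPM per kb were lowest in shScr too, and the HMGCS1 libraries lay on both sides of those of MVK.

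Over the 6 RNA libraries, 6 points that share 1 experiment and the low control library, HMGCS1, SQLE and INSIG1 had the most similar profiles. Pearson's r of log2 CPM was 0.989 between HMGCS1 and SQLE and 0.988 between HMGCS1 and INSIG1. The least similar pair was MVK and IDI1, with r = 0.345. Against the mean of the other 7 genes, r was 0.989 for INSIG1, 0.986 for FDFT1, 0.981 for HMGCS1, 0.976 for DHCR7, 0.972 for SQLE and 0.878 for SREBF2, with IDI1 at 0.758 and MVK at 0.752.

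Of all other tested genes, the 10 with profiles most like the mean of the 8 were HILPDA, SLC7A11, SLC4A7, CCNG2, EFNA5, CCNB1IP1, BRWD3, RFX3, TESK2 and SNX30, with r between 0.994 and 0.998 over the 6 libraries. SLC7A11, a cystine importer, had 46.7, 41.5 and 47.3 CPM in shRNF8 and 44.98, 106 and 91.4 CPM in shScr. HILPDA, a protein of lipid droplets, had 11.9, 11.6 and 12.02 CPM in shRNF8 and 12.2, 16.3 and 15.7 CPM in shScr. CCNG2, an unusual cyclin of resting cells, had 5.92, 5.996 and 6.04 CPM in shRNF8 and 6.23, 14.0 and 12.4 CPM in shScr. All 3 have shScr replicate 1 beside the shRNF8 libraries, and none of the 10 passed an adjusted p of 0.05 (edgeR, 0.101 for CCNG2 to 0.253 for HILPDA). The 10 were picked for likeness to a mean in which shScr replicate 1 is low, so that pattern and its wide shScr spread came with the choice. The nearest genes of the pathway lists ranked 16 (MVD), 22 (FDPS), 24 (SCD), 30 (FADS2) and 44 (FADS1). The farthest ranked 13791 (DHDDS, r = -0.955), 13550 (SMPDL3A, r = -0.927) and 13161 (PMVK, r = -0.890). DHDDS and PMVK are in the same mevalonate and isoprenoid list as MVD and FDPS, so the lists did not follow the 8 genes as a whole.

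A further 45 genes of sterol and fatty acid metabolism, in 6 lists, were all tested. By edgeR's adjusted p, 2 fell in shRNF8 and 0 rose, against 1.57% and 0.97% of all genes. At an unadjusted p under 0.05 there were 19 of the 45, against 20.1% of all genes. DESeq2 called 6 of the 45 lower and 1 higher, against 3.78% and 2.3% of all genes, and limma-voom 1 lower and 0 higher, against 1.08% and 0.792%. Both that fell belong to fatty acid synthesis, a list of 8. ELOVL6, which elongates palmitate, had 34.8, 33.1 and 32.2 CPM in shRNF8 and 46.1, 47.2 and 45.3 CPM in shScr, a difference of -0.47 ± 0.09 (SE) on the log2 scale with an edgeR adjusted p of 0.0250. ACSS2, which makes acetyl-CoA from acetate, had 34.9, 36.4 and 32.3 CPM in shRNF8 and 41.5, 55.1 and 52.9 CPM in shScr, a difference of -0.53 ± 0.12 (SE) with an edgeR adjusted p of 0.0451. Neither gene's groups overlapped, and the ELOVL6 shScr libraries lay close together, replicate 1 included. ACSS2 lost its call under 4 of the other settings that kept all libraries, and both genes lost theirs without any 1 library other than shScr replicate 1. FASN, the fatty acid synthase, did not pass (-0.57, edgeR adjusted p = 0.0886). The list had a median log2 fold change of -0.51 and 7 of 8 fitted values below 0.

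None of the other lists held a gene called by edgeR, although unadjusted p-values under 0.05 numbered 1 of 6 in the mevalonate list, 5 of 10 among sterol enzymes and 2 each in the lists of 9, 5 and 7 genes described next, beside the 20.1% of all genes. DESeq2 called NPC1, SREBF1 and SMPDL3A in these lists. In the mevalonate and isoprenoid list, 4 of 6 fitted values were below 0 with a median of -0.13, and the smallest p belonged to MVD, which makes isopentenyl diphosphate (-0.49, edgeR adjusted p = 0.152), followed by FDPS (-0.17, 0.318) and PMVK (0.18, 0.424). In the list of sterol enzymes, 9 of 10 were below 0 with a median of -0.26. HSD17B7, a sterol ketone reductase, had -0.54 (edgeR adjusted p = 0.127), TM7SF2 -0.72 (0.176) and EBP -0.22 (0.207).

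Among 9 genes of SREBP processing and sterol sensing, 5 were below 0 with a median of -0.09. SREBF1, whose products drive fatty acid genes more than cholesterol genes, had -0.49 (edgeR adjusted p = 0.0763), the INSIG1 relative INSIG2 -0.62 (0.233) and the protease gene MBTPS2 0.19 (0.297). In the list named for sterol uptake and transport, all 5 genes were below 0 with a median of -0.36. The smallest p-values belonged to the lysosomal cholesterol exporter NPC1 (-0.36, edgeR adjusted p = 0.0915), LPIN1 (-0.56, 0.189) and NPC2 (-0.19, 0.282). LPIN1 encodes a lipid phosphatase and is not itself a gene of sterol transport. Of 7 genes of the liver X receptors and of sterol efflux, 5 were below 0 with a median of -0.16. SMPDL3A, an LXR target, had 15.7, 14.0 and 19.1 CPM in shRNF8 and 12.9, 7.48 and 7.44 CPM in shScr (0.81, edgeR adjusted p = 0.0752), while NR1H3 had -0.43 (0.229) and NR1H2 0.16 (0.361). SMPDL3A ran opposite to the 8 genes, and here shScr replicate 1 was the highest shScr library.

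Without shScr replicate 1, 23 of the 45 were called lower and 2 higher (PMVK and SMPDL3A), against 14.3% and 12.8% of all genes. The lower calls numbered 7 of 8 in fatty acid synthesis, 6 of 10 among sterol enzymes and 3 of 5 in the uptake and transport list, LPIN1 included. They numbered 3 of 7 in the LXR list, 2 of 6 in the mevalonate list and 2 of 9 in SREBP processing. As a mean log2 level relative to the shScr mean, the 8 genes stood at -0.53, -0.62 and -0.52 in shRNF8 and at -0.48, 0.32 and 0.16 in shScr. Fatty acid synthesis stood at -0.42, -0.48 and -0.61 in shRNF8 and at -0.38, 0.22 and 0.16 in shScr, so that shScr replicate 1 was near shRNF8 in both lists.

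**Figure D3:**
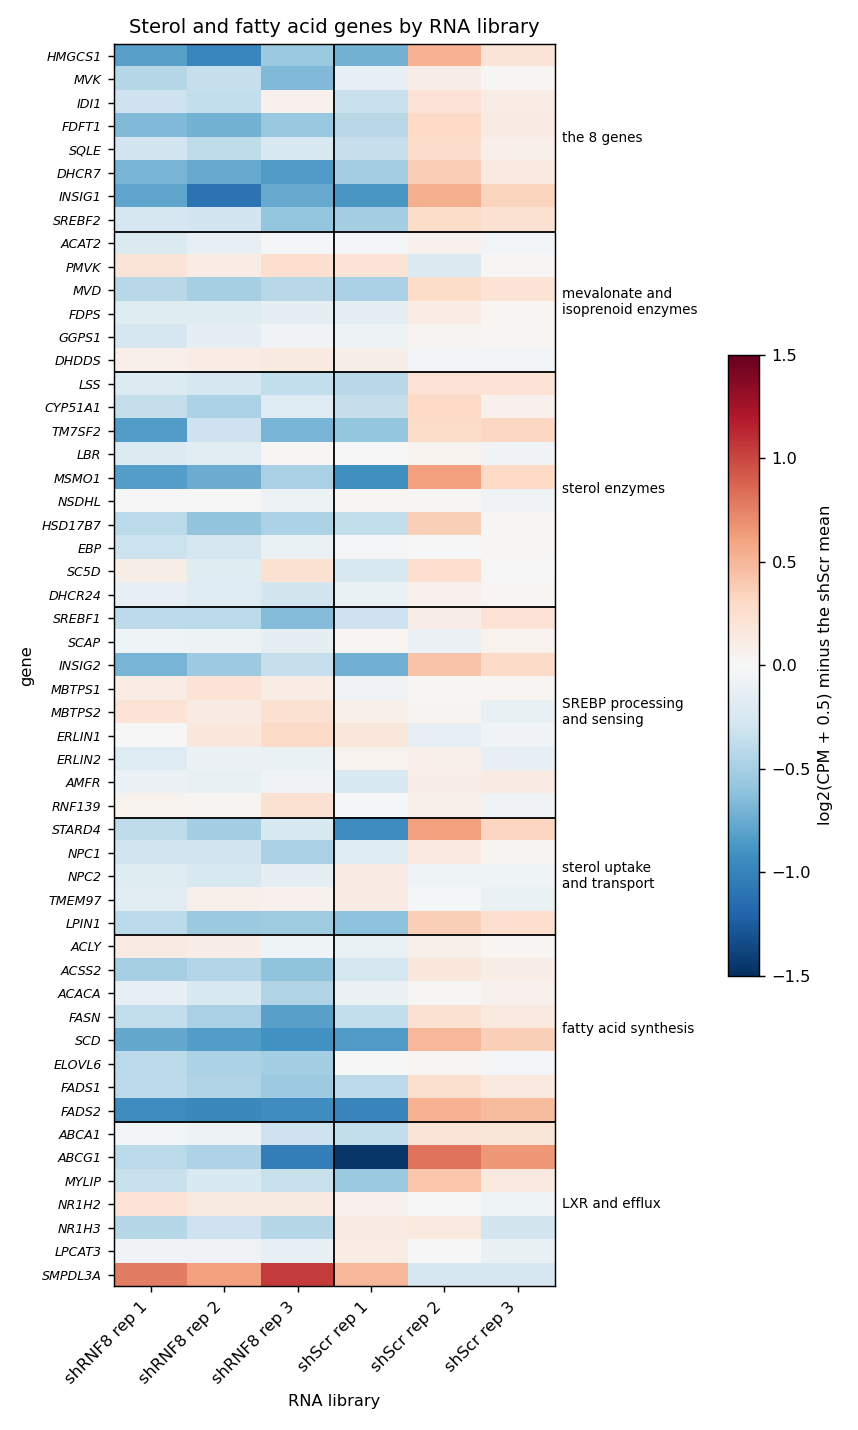
Log2(CPM + 0.5) minus the shScr mean for the 8 genes and the 45 other pathway genes (rows, grouped by list) in 3 shRNF8 libraries (left) and 3 shScr libraries (right), blue lower and red higher. Among the 8 genes, the shScr replicate 1 column has a mean of -0.48, close to the shRNF8 columns (-0.53, -0.62 and -0.52), and SMPDL3A is red in shRNF8.

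The study concerns R-loops, stretches where a transcript stays paired to its DNA template, and DRIP-seq located such hybrids over the same genes. The authors deposited 1 list of MACS2 peaks per library, and each peak's fold enrichment over local background is theirs. The S9.6 lists held 32358, 34103, 50963 and 48546 peaks in shRNF8 and 49277 and 38659 in shScr. Peaks of shRNF8 replicates 3 and 4 covered 23.5% and 22.6% of the mean tested gene, against 14.5% and 12.6% for shRNF8 replicates 1 and 2 and 15.6% and 14.8% for shScr. In the lists of shRNF8 replicates 3 and 4 the peaks are named after replicates 1 and 2 but are different peaks, and read depth is unknown. The start and body results below are therefore given by library.

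After RNase, 0 of the 8 genes had a peak within 5000 bp in any of 6 libraries, where 3.66% of 13541 tested genes had one in at least 1 library. At the start itself it was likewise 0 of the 8 genes, beside 0.487% of tested genes. The RNase-treated lists were short, with 254 to 1912 peaks in shRNF8 and 731 and 997 in shScr.

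At the gene start (summit within 1000 bp), HMGCS1, IDI1 and SREBF2 had a peak in all 6 S9.6 libraries, which is 3 of the 8 genes beside 10.0% of tested genes. The HMGCS1 start had a fold enrichment of 10.6, 4.10, 9.88 and 5.602 in shRNF8 and 4.35 and 6.32 in shScr. The IDI1 start had 4.57, 2.66, 10.2 and 9.54 in shRNF8 and 8.396 and 6.78 in shScr. The SREBF2 start had 4.96, 5.79, 9.82 and 9.76 in shRNF8 and 12.1 and 7.52 in shScr. The shScr libraries lay within the shRNF8 range for HMGCS1 and IDI1, and for SREBF2 the shScr libraries reached from inside that range to above it.

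After division by each library's median fold at 1355 starts with a peak in all 6, the log2 difference of shRNF8 minus shScr was 0.48 for HMGCS1 (exact permutation p = 0.333, two-sided), -0.31 for IDI1 (exact p = 0.8) and -0.34 for SREBF2 (exact p = 0.533). The 15 possible splits allow no p below 0.0667. Groups overlapped at all 3 starts, while 16.8% of the 1355 starts had shRNF8 wholly lower and 14.8% wholly higher. Without shRNF8 replicates 3 and 4, the difference was 0.32 for HMGCS1, -1.12 for IDI1 and -0.84 for SREBF2. With shRNF8 replicates 3 and 4 as the only shRNF8 libraries, it was 0.61 for HMGCS1, 0.49 for IDI1 and 0.14 for SREBF2. The sign for IDI1 and SREBF2 thus differed between the pairs of shRNF8 libraries, and without shRNF8 replicate 2 alone IDI1 was 0.02. Leaving out 1 library at a time gave 0.13 (without shScr replicate 1) to 0.76 (without shScr replicate 2) for HMGCS1 and -0.67 (without shScr replicate 2) to -0.07 (without shScr replicate 1) for SREBF2.

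INSIG1 had a start peak in 5 of 6 libraries, with a fold of 7.20, 4.92 and 11.6 in shRNF8 replicates 1, 2 and 4 and 10.8 and 8.94 in shScr. In shRNF8 replicate 3 a peak 4850 bp wide also covered the start, with a fold of 14.3, but its summit lay at -1458 bp from the start. With that peak counted, the start position itself lay under a peak in all 6 S9.6 libraries for INSIG1 and HMGCS1, 2 of the 8 genes beside 13.4% of tested genes. The nearest peaks began 66 bp inside IDI1 in shRNF8 replicates 1 and 2, and lay on either side of the SREBF2 start in shRNF8 replicate 2. The INSIG1 promoter, printed above, has the highest GC content of the 6 scanned. That of DHCR7 has 75.2%, with a start peak only in shRNF8 replicates 3 and 4, and that of HMGCS1 has 66.0%. A relation between GC content and peaks was not tested.

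DHCR7, MVK and SQLE had a start peak in shRNF8 replicates 3 and 4 and in no other S9.6 library. That is 3 of the 8 genes beside 2.39% of tested genes, for a pattern picked after the peaks had been seen. Folds in replicates 3 and 4 were 6.44 and 5.42 for DHCR7, 6.87 and 7.49 for MVK and 3.41 and 4.97 for SQLE. The SQLE peaks were different ones, 288 and 276 bp wide, with summits at -114 and 995 bp from the start. That of replicate 4 did not cover the start and met the 1000 bp limit only narrowly. Without shRNF8 replicates 3 and 4 no start peak remained for DHCR7, MVK or SQLE in either group. The MVK start is 142 bp from that of MMAB on the opposite strand, so an unstranded peak there belongs to both. FDFT1 had no start peak in any S9.6 library, as did 39.5% of tested genes.

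**Figure D4:**
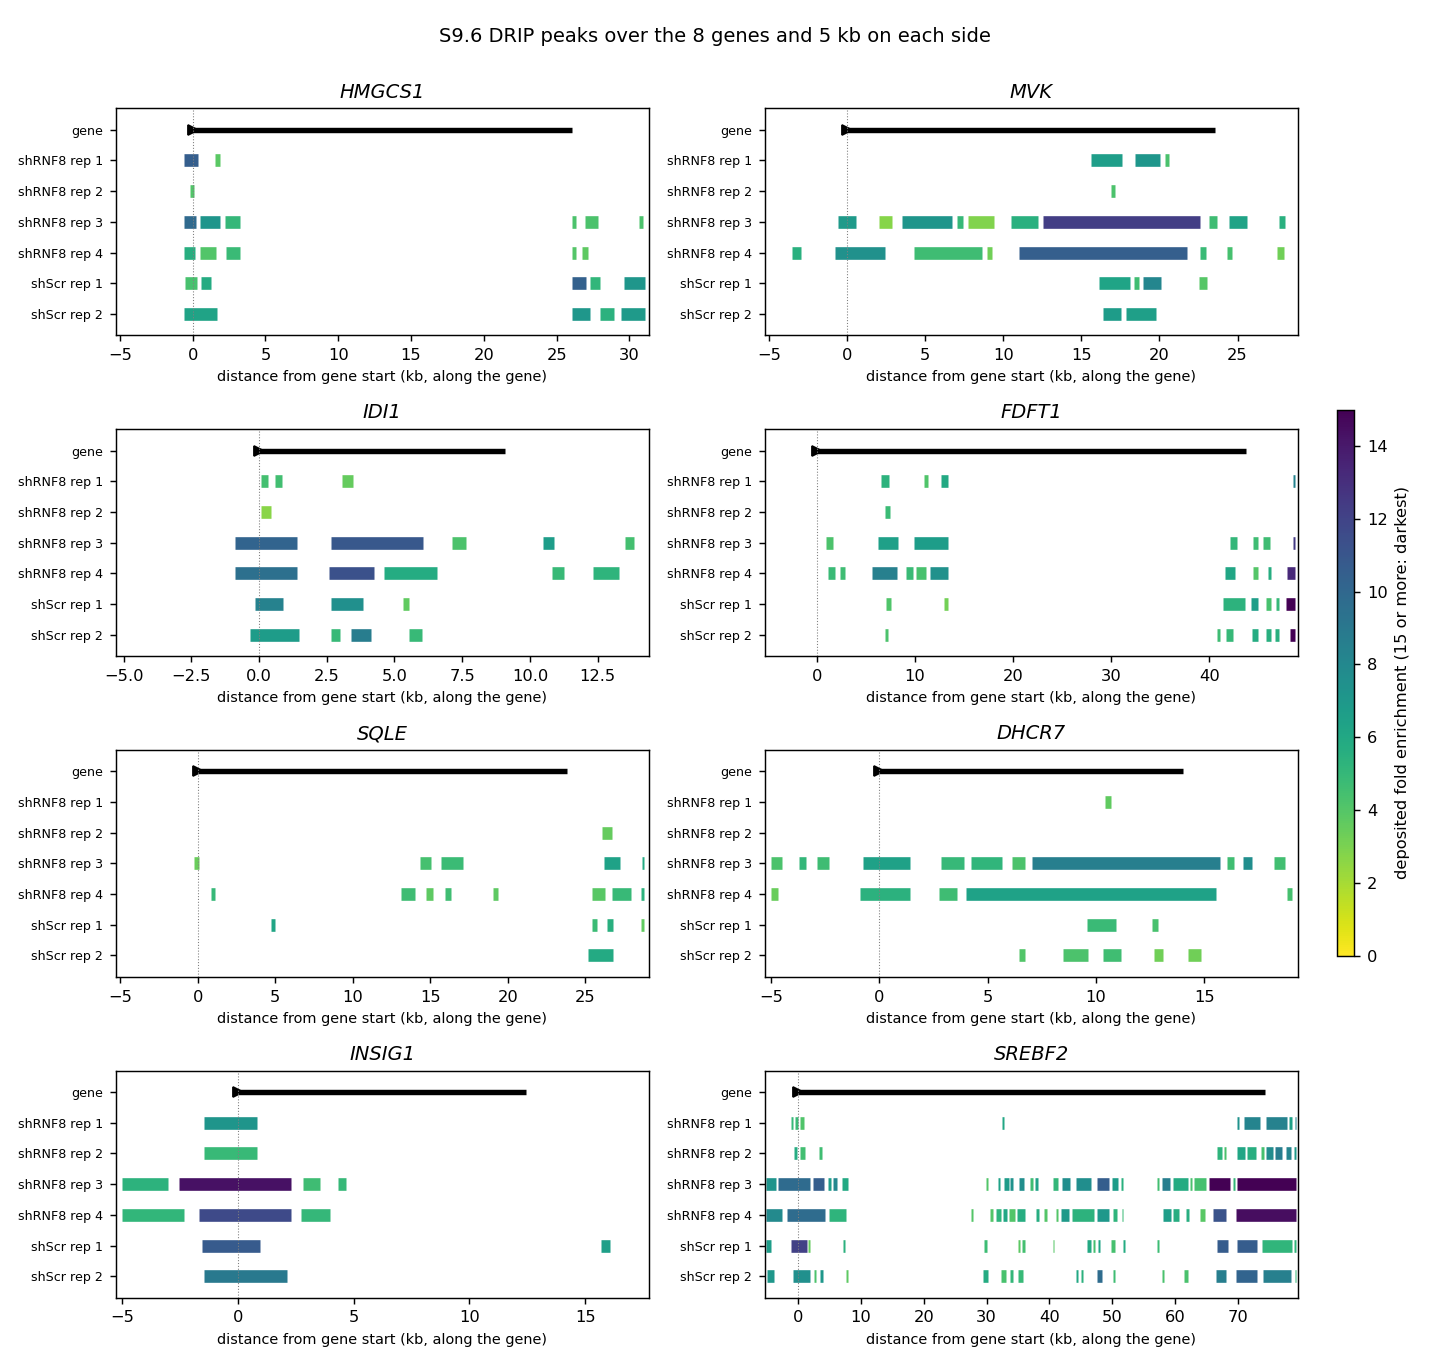
S9.6 peaks (bars, coloured by deposited fold enrichment) along each gene, by distance from its start in kb along the direction of transcription, for 4 shRNF8 libraries (upper rows) and 2 shScr libraries (lower rows), drawn to 5 kb on each side. HMGCS1 and INSIG1 have the start itself under a peak in all 6 libraries, and DHCR7 and MVK are covered by wide peaks in shRNF8 replicates 3 and 4.

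Along the gene bodies the same 2 libraries stood out. Peaks covered 1.79, 0, 81.9 and 87.8% of DHCR7 in shRNF8 and 11.6 and 18.8% in shScr. They covered 16.4, 1.23, 80.0 and 77.3% of MVK in shRNF8 and 16.7 and 13.1% in shScr. In shRNF8 replicates 3 and 4, single peaks of 8643 and 11556 bp lay over DHCR7 and of 10067 and 10751 bp over MVK, while replicates 1 and 2 lay within or below the shScr range.

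IDI1 was covered over 10.0, 4.21, 58.4 and 55.0% in shRNF8 and 25.5 and 33.4% in shScr. SREBF2 was covered over 5.40, 7.58, 43.0 and 40.5% in shRNF8 and 15.6 and 18.6% in shScr. In both genes shScr lay between the pairs of shRNF8 libraries. INSIG1 had 6.44, 6.43, 27.1 and 28.1% in shRNF8 and 7.76 and 16.8% in shScr. FDFT1 had 4.54, 1.21, 15.6 and 18.9% in shRNF8 and 7.43 and 2.98% in shScr. HMGCS1 stayed at 10.0% or less in shRNF8 and 6.37% or less in shScr, and SQLE at 9.71% or less in shRNF8 and 1.18% or less in shScr.

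Relative to each library's mean over all tested genes, the groups overlapped for all 8 genes, where 9.51% of genes had shRNF8 wholly lower and 6.62% wholly higher. For DHCR7 the relative share was 0.12, 0, 3.48 and 3.89 in shRNF8 and 0.74 and 1.27 in shScr, and for MVK it was 1.13, 0.10, 3.40 and 3.42 in shRNF8 and 1.07 and 0.89 in shScr. DHCR7, MVK and SQLE had a relative share in shRNF8 replicates 3 and 4 at least 2 times that of each other library, a pattern picked after its values were seen, which 7.54% of tested genes shared.

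**Figure D5:**
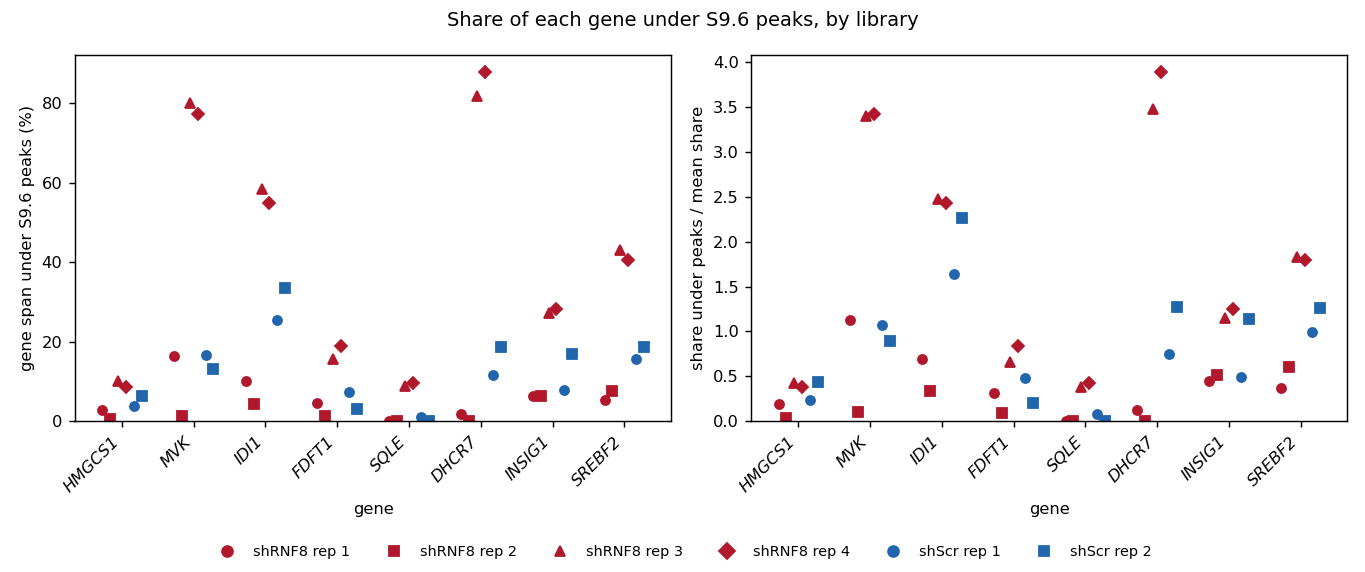
Share of each gene's span under S9.6 peaks (left, %) and the same divided by the library's mean share over tested genes (right), for 4 shRNF8 libraries (red) and 2 shScr libraries (blue). DHCR7 and MVK lie above 75% in shRNF8 replicates 3 and 4 and below 20% in the other 4 libraries.

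Near the gene ends (1000 bp before to 5000 bp after), the HMGCS1 values were apart by group. No peak was listed there in shRNF8 replicates 1 and 2, replicates 3 and 4 had a fold of 4.24 and 4.03, and shScr had 10.4 and 7.06. After scaling to ends with a peak in all 6 libraries, and with a missing peak counted as the lowest value, HMGCS1 was the 1 gene of the 8 with shRNF8 wholly below shScr, while 7.26% of tested genes were so and 2.91% were wholly above. A count of 1 in 8 is near that share. Within shRNF8 replicates 3 and 4, the scaled values were 0.53 and 0.56, against 1.32 and 0.93 in shScr. This window was examined after the peaks had been seen.

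FDFT1 had its strongest listed peak 6360 to 8818 bp past its end, inside the span of the neighbouring gene CTSB, in 5 of the 6 libraries, with a fold of 8.28, 12.4 and 13.3 in shRNF8 replicates 1, 3 and 4 and 15.2 and 18.3 in shScr. SREBF2 had in shRNF8 replicates 3 and 4 peaks of 21819 and 28441 bp that ran past its end, with a fold of 16.8 and 14.5 at summits 12633 and 10856 bp beyond it. In shRNF8 replicates 1 and 2 the strongest SREBF2 peak had a fold of 8.35 and 8.73 and lay 708 and 1877 bp past the end, and in shScr it had 12.1 at the start and 10.2 inside the gene. The SREBF2 summits of shRNF8 replicates 3 and 4 lay inside no gene with 1 annotated locus. The neighbouring gene SHISA8 lies at chr22:41909554-41914667 on the minus strand. The S9.6 lists carry no strand, so the hybrids past FDFT1 cannot be tied to FDFT1 or CTSB. Those past SREBF2 cannot be tied to SREBF2 or SHISA8.

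FDFT1, DHCR7 and MVK, the genes with RNA groups apart, had no start peak in shScr or in shRNF8 replicates 1 and 2, and neither did SQLE, whose RNA groups overlapped. Such a lack is common, as 39.5% of tested genes had no start peak in any S9.6 library. A further 2.39% had one in shRNF8 replicates 3 and 4 only. A relation between start peaks and RNA differences was not tested. The genes with a start peak in all 6 libraries included HMGCS1, with a large RNA difference (-0.86), and IDI1, with the smallest of the 8 (-0.21). RNA and DRIP libraries are separate preparations, so no library pairs these values.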

How the data were processed

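MDA-MB-436 cells were profiled in 21 samples. The 3 input samples were not used here. The deposited counts are whole fragments per gene, made by the authors with featureCounts on an hg38 annotation with no strand option, per the file headers. The submitters' processing notes name Trim Galore 0.6.6, STAR 2.7.9a, Bowtie2 2.2.6, MACS2 2.2.7.1 and Subread 2.0.1. Per DRIP library the authors deposited MACS2 peaks with a linear fold enrichment (a ratio), a score, and -log10 of p-value and q-value. The lowest -log10 q was 2.00. Coordinates are of hg38, promoters of GRCh38.p14 (RefSeq).

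Counts were tested in R 4.3.3 with edgeR 4.0.16 (TMM, filterByExpr, robust quasi-likelihood, group as the only term, Benjamini-Hochberg over 14018 genes), after a test on simulated data. The biological coefficient of variation was 12.4%. DESeq2 1.42.0, limma-voom (limma 3.58.1), other scalings and filters, a replicate block and leaving out each library were alternatives. Peaks were read in Python 3.11.15 against gene positions of the count table, over 13541 tested genes with 1 locus. DRIP groups were compared by exact permutation over 15 splits. Precision is limited by 3 RNA libraries and by 2 shScr DRIP libraries.

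The 8 genes, the pathway lists, the promoter motifs and the tests were chosen with earlier results or sequences of these data known. The lists do not cover every gene of the pathway. Named beside the 8 were called pathway genes and up to 3 per list with the smallest p, the 10 genes most alike in profile, 4 markers and RNF8. Outside that rule, other markers, neighbouring genes and the pathway genes nearest and farthest in profile were named too. Replicate numbers did not pair the RNA libraries (same-number correlations of -0.05, 0.11 and -0.23 in deviations from group means).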

Additional observations from a re-analysis of the deposited data

How the results depend on the processing

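The median log2 fold change of the 8 genes stayed below 0 in every alternative run (-0.74 to -0.48), and so did each gene. Counts of calls moved more. The 1 lower call among the 8 genes became 3 with DESeq2, 2 with the replicate block, and 0 with library size scaling, upper-quartile scaling, limma-voom or a minimum mean CPM of 5, and it ranged from 0 to 8 when each library was left out. The 2 lower pathway calls became 6 with DESeq2 and 1 under those same 4 settings, and ranged from 0 to 23 when each library was left out. The 0 higher pathway calls became 1 with DESeq2, with no filter and with the replicate block, and ranged from 0 to 2. The 8 and 23 calls came without shScr replicate 1, and FDFT1 had an adjusted p of 0.135 to 0.193 without any other library. The replicate block, for numbers that share only a number, called FDFT1 and DHCR7. Over all genes, lower calls were 220, against 530 with DESeq2 and 2042 without shScr replicate 1. The causes were not tested.

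The 3 genes with a start peak in all 6 S9.6 libraries became 0 at a -log10 q of at least 5. They became 2 with a start window of 500 bp, and 4 with 2500 bp or with any overlap of peak and window. With 2500 bp and with any overlap, the start fold difference was 0.23 and 0.14 for HMGCS1. It was -0.34 and -0.43 for IDI1 and -0.37 and -0.46 for SREBF2. The start fold difference reversed for IDI1 to 0.49 and for SREBF2 to 0.14 with shRNF8 replicates 3 and 4 alone, an alternative chosen after seeing the data, and for IDI1 without shRNF8 replicate 2 (-0.59 to 0.0191 when each library was left out). Leaving out each library gave 0.13 to 0.76 for HMGCS1 (0.48 with all) and -0.67 to -0.07 for SREBF2 (-0.34 with all). With shRNF8 replicates 1 and 2 alone IDI1 was -1.12 and SREBF2 -0.84, and with the replicate block -1.13 and -0.85. The 1 gene with a wholly lower end fold became 2 (FDFT1 and HMGCS1) without scaling, and ranged from 1 to 3 when each library was left out. Unknown DRIP depth limits any statement on missing peaks.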
